A study of Mus musculus with 8 samples.

Results

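The chemokine ligands and receptors of the thyroid were read from whole-genome expression arrays of 4 control and 4 99mTcO4--exposed mice. Members were taken by symbol: every gene on the array named Ccl, Cxcl, Ccr or Cxcr with a number, together with Cx3cl1, Cx3cr1, Xcl1 and Xcr1. This gave 54 genes, 35 ligands and 19 receptors, of 21021 genes that had a probe with a RefSeq accession, and 70 probes of the 55681 on the array. The rule itself used symbols only, but the members were chosen with earlier results of these data known. The animals were Balb/c mice, which the study's methods give as female, obtained at 8 weeks of age and fed a normal-iodide diet. The exposed mice (labelled Tc, numbered S539, S588, S589 and S590) had received pertechnetate, 99mTcO4-, an iodide-like anion that thyrocytes take up, to an absorbed dose of 30 Gy in the thyroid. The control mice (labelled Ct1 to Ct4) are called untreated in the study's text and saline-injected in one of its legends. Total RNA was taken 24 hours after administration from whole thyroids, 1 thyroid per array, so all cells of the gland and of any tissue left on it contributed.

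Chemokines are small secreted proteins that guide the movement of leukocytes along gradients, and they are read by receptors that couple to inhibitory G proteins. They are grouped by the spacing of their first cysteines into CC, CXC, XC and CX3C families, and most receptors bind several ligands. Cx3cl1 and Cxcl16 are unusual ligands, made as membrane-anchored proteins on epithelium, endothelium or antigen-presenting cells and shed from there. In the thyroid, as in other glands, resident macrophages and dendritic cells carry receptors such as Cx3cr1, and chemokines of the Cxcr3 group are known from autoimmune thyroid disease.

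The probe sequences show what was hybridised for the 3 genes on which the results turn, and how far the probes of one gene were separate measurements. The first 30 bases of each 60-base probe are given, with capitals for the bases that both Cxcr6 probes hold.
Cx3cr1, probe A_55_P2007964: cgtgcctagagtgtgtctatcccacttgta
Cx3cr1, probe A_52_P99810: caagaatgtcttcatgcattcactgactcc
Cxcr6, probe A_55_P2165199: aatgtataaaACAGAGCTTAAGACTTTAAC
Cxcr6, probe A_55_P1962209: ACAGAGCTTAAGACTTTAACaaatacaaga
Cxcl12, probe A_55_P1966204: gctgtaaacctcctaccgtatgtgggaatt
Cxcl12, probe A_51_P172502: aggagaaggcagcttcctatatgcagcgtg
On the array's mm9 coordinates the Cx3cr1 probes lie on the minus strand at chr9:119957811-119957870 and chr9:119959018-119959077, so they are separate stretches of the same transcript, NM_009987. A stretch of 20 bases of A_55_P2007964 also stood, on either strand, in 1 probe of another gene, whereas A_52_P99810 shared none. The part of that stretch in the signal was not tested. The Cxcr6 probes lie at chr9:123720709-123720768 and chr9:123720719-123720778 on the plus strand and share 50 of their 60 bases, so they are near-repeats of one measurement. The Cxcl12 probes lie at chr6:117125026-117125085 and chr6:117131227-117131286 on the plus strand and carry different accessions, NM_021704 and NM_001012477, which are different transcript variants. Whether each probe reads its named variant alone was not checked. Exon or untranslated location was not assigned, since no mm9 annotation was used here.

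The promoters of 39 of the 54 genes were found in a RefSeq table on GRCm38.p6, a different build from that of the probes. The 250 bases upstream of the start are printed for the called genes and for Cxcl10, a textbook interferon target, with every searched motif in capitals.
Cx3cr1, chr9:120068297-120068546, minus strand: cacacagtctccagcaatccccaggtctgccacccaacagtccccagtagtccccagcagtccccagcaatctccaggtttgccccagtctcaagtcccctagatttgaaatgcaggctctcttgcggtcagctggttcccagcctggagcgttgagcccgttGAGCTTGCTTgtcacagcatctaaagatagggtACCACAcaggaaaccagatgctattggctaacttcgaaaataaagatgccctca
Cxcr6, chr9:123806227-123806476, plus strand: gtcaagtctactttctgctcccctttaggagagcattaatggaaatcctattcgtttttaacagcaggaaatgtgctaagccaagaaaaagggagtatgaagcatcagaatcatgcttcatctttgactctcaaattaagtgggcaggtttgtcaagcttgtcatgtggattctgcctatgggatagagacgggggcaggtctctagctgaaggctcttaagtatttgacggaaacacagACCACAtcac
Cxcl12, chr6:117168285-117168534, plus strand: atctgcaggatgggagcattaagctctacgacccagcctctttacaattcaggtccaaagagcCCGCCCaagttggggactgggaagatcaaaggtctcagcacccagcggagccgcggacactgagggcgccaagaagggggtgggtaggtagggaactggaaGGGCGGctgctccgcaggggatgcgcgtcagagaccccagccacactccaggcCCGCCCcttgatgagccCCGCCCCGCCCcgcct
Cxcl10, chr5:92348890-92349139, minus strand: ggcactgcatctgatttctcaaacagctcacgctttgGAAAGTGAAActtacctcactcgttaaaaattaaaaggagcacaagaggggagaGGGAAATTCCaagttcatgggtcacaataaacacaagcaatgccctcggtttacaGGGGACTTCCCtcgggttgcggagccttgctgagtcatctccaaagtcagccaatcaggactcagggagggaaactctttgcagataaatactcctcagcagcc
Both strands were searched for 6 motifs, and matches of one motif could overlap those of another. TGTGGT, the core read by RUNX factors, stood in the Cx3cr1 and Cxcr6 promoters and in those of 10 of the 39 member genes (25.6%), against 14% of 32851 promoter windows. The p53 half-site consensus stood in that of Cx3cr1 and in 4 member promoters (10.3%), against 7.13%. GGGCGG, the GC box, stood several times in the Cxcl12 promoter and in 8 member promoters (20.5%), against 32.7%. The interferon-stimulated response element, GAAA, any 2 bases and GAAA again, stood in that of Cxcl10 and in 3 member promoters (7.69%), against 2.98%. The NF-kB consensus stood in 10 member promoters (25.6%), Cxcl10, Cxcl1, Cxcl2 and Cxcl3 among them, against 7.25%, and TATAAA in 12 (30.8%), against 12.4%. A member gene was counted if any of its promoter windows held the motif, whereas the background is a share of single windows. The paired percentages are therefore of unlike units. These are matches of letters and say nothing on whether a factor was bound.

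Over all probes, 435 of 55681 passed an adjusted p of 0.05 in limma, 327 higher and 108 lower in exposed thyroids. Between 60.5% and 75% of spots on control arrays and between 70.9% and 77.3% on exposed arrays were well above background, the scanner software's call that a spot exceeds its surroundings. Thyroglobulin (Tg), the defining product of thyrocytes, read between 18.70 and 19.07 on the log2 scale on every array, and Slc5a5, the iodide symporter through which pertechnetate enters, fell by 3.53 on the log2 scale (adjusted p = 0.0137, and 0.086 against controls 3 and 4 alone). Exposed and control samples lay in separate positions of 1 slide, which leaves group and position confounded, and the 2 cannot be told apart. Controls 1 and 2 stood apart from the other 6 arrays in genes of developing T cells, and array S588 in genes of neutrophils. Some of the member results and gene lists that these arrays touch, but not all, are given with and without them below.

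All values are quantile-normalised log2 signals, on which a difference of 1 is a 2-fold change, and values are listed in the order controls 1 to 4 and then S539, S588, S589 and S590. Of the 54 genes, each read by its brightest RefSeq probe, 33 were well above background on all 8 arrays (21 ligands and 12 receptors), 16 on some arrays and 5 on none. None of the member spots was saturated. Chemokine genes lie in clusters, and 12 of the ligands read here were on chromosome 11, 11 ligands on chromosome 5 and 11 receptors on chromosome 9 (mm9).

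Chemokine transcripts that passed the test were all lower in exposed thyroids, and they belonged to 3 genes. Among these were Cx3cr1, the fractalkine receptor of monocytes, macrophages and dendritic cells, and Cxcr6, a receptor of T, NKT and innate lymphoid cells. Cxcl12, the stromal chemokine that retains Cxcr4-bearing cells, passed on 1 of its probes. No member passed in the higher direction. In all, 5 of 70 probes passed (7.14%), and all 5 were lower, where 0.781% of all probes passed, 0.194% lower and 0.587% higher. When each gene was read by its brightest RefSeq probe, 2 of 54 passed (3.7%), Cx3cr1 and Cxcr6, against 1.2% of all genes, 0.295% lower and 0.904% higher. At an unadjusted p under 0.05 there were 10 members lower and 1 higher, where 8.13% of all genes were lower and 6.47% higher at that level.

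Over all members, called genes included, more differences lay below zero than above it. The fold change was negative in 37 of 54 genes (68.5%), in 15 of 19 receptors and 22 of 35 ligands, against 53.6% of all genes, and the median log2 fold change was -0.15 over members, -0.21 over receptors and -0.10 over ligands, against -0.03 over all genes. With scaling to the 75th percentile, after the median shift of all probes (0.165) was subtracted, 33 of 54 were negative. Against controls 3 and 4 alone it was 33 of 54 (61.1%), with a median of -0.09. Without control 2 it was 32 of 54 (59.3%), and the same without S588. The share of all genes below zero was not computed in these settings. Among the 51 genes with no called probe, 34 were negative, with a median of -0.13. The 4 exposed values lay below all 4 control values in 7 genes (13%), against 6.21% of all genes, and above them in none, against 5.44%. Among them were Cx3cr1, Cxcr6, Cx3cl1, Cxcl10, Cxcl12 and Ccl22, the last of which was well above background on no array. Leaving out control 4 gave 12 genes without overlap, counted in either direction. Groups with fewer arrays separate more easily, and the share over all genes was not computed there, so this count has no background.

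**Figure D1:**
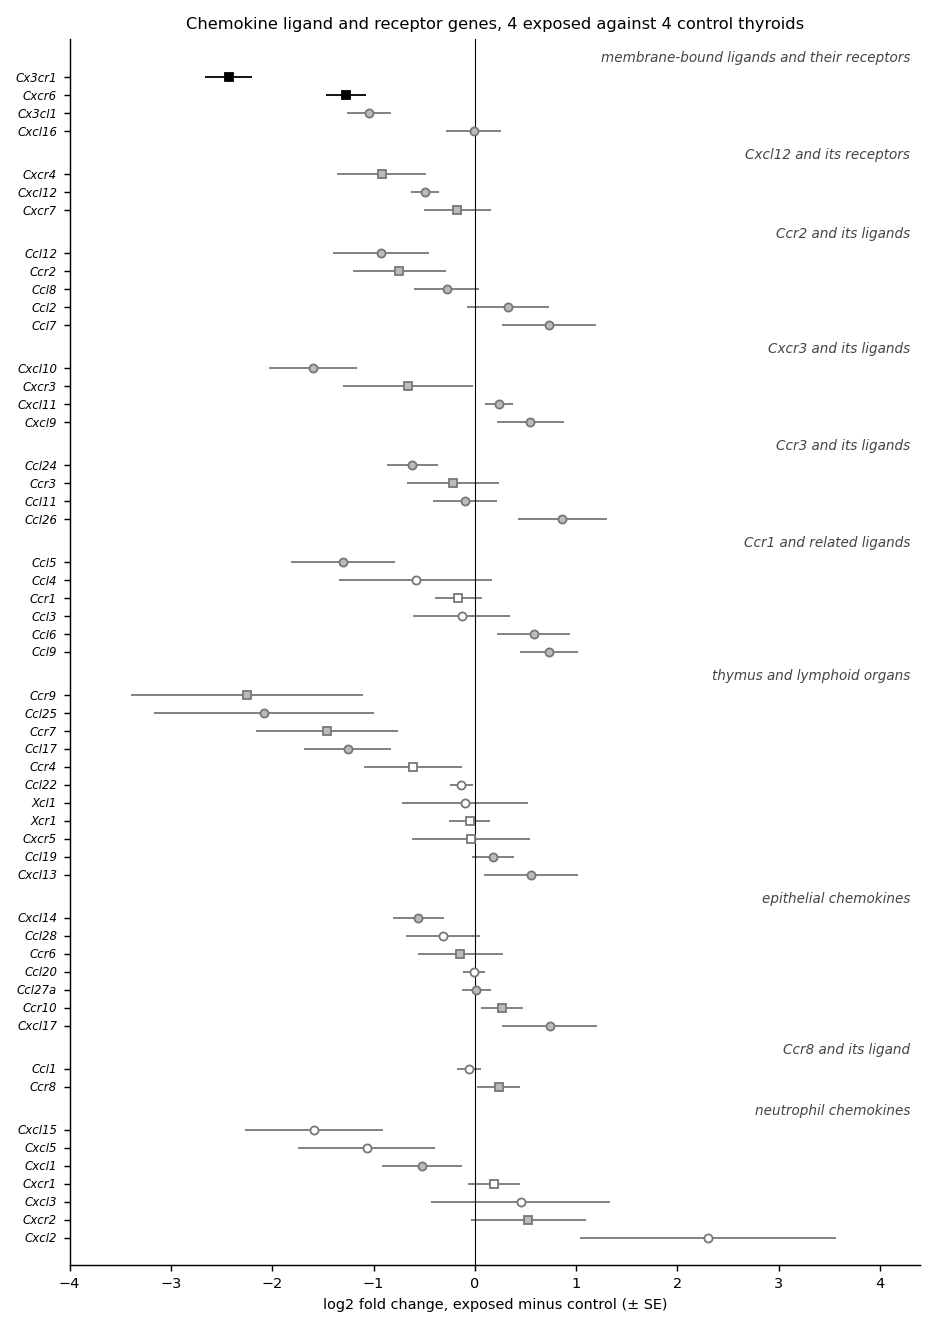
Log2 fold change (exposed minus control, with its standard error) of 53 of the 54 genes, grouped by receptor system; squares are receptors and circles ligands, black marks an adjusted p under 0.05, and open symbols mark 16 genes well above background on fewer than 4 arrays of each group. Black symbols are Cx3cr1 at -2.43 and Cxcr6 at -1.27, both left of zero, and the long error bars of Ccr9 and Ccl25 come with control arrays that differed among themselves.

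The fractalkine pair was lower on both sides. Cx3cr1 read 10.63, 11.46, 10.79 and 10.47 in controls and 8.60, 8.53, 8.17 and 8.32 in exposed thyroids. Every exposed array lay below the lowest control. The log2 fold change was -2.43 ± 0.24 (SE, n = 4 per group), or 5.39-fold lower (adjusted p = 0.00714). The second Cx3cr1 probe, 1 transcript read at another place, gave 8.66, 9.68, 9.39 and 9.27 in controls and 6.08, 4.87, 6.15 and 6.16 in exposed thyroids, lowest on S588. It fell by 3.43 on the log2 scale (SE 0.35, adjusted p = 0.00845), so both probes gave the same direction with different sizes. Without S588 the log2 fold changes were -2.47 (adjusted p = 0.0277) and -3.12 (adjusted p = 0.0111). Cx3cl1, the fractalkine ligand itself, read 12.08, 12.51, 12.04 and 11.68 in controls and 11.23, 10.66, 10.998 and 11.24 in exposed thyroids. These groups did not overlap, and its log2 fold change was -1.04 ± 0.22 (SE, n = 4 per group), which missed the threshold (adjusted p = 0.0994). Under 6 of 18 alternatives Cx3cl1 passed, with an adjusted p from 0.0395 to 0.267 over all of them. Whether fewer cells carried Cx3cr1 or each cell held less of its RNA cannot be told apart in whole-gland RNA, and the same holds for every gene below.

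Genes of the cells that carry Cx3cr1 are set beside it. Of 15 macrophage markers, none passed and 11 were negative, with a median log2 fold change of -0.41, and Csf1r, the macrophage growth factor receptor, read 13.28 to 13.63 in controls and 12.67 to 13.13 in exposed thyroids (adjusted p = 0.149). The mean deviation of the macrophage markers from their own means over the 8 arrays ran from -0.05 to 0.27 in controls and from -0.27 to -0.01 in exposed thyroids, and 14 of the 15 cleared the background on each of the 8 arrays. Of 15 dendritic cell markers all were negative, with a median of -1.34, and their mean deviation ran from 0.21 to 1.10 in controls and from -0.71 to -0.595 in exposed thyroids, with no overlap. Controls 1 and 2 had the highest of these deviations, and against controls 3 and 4 alone all 15 were still negative, with a median of -0.946 and none called. H2-Aa, an MHC class II chain, fell by 2.22 on the log2 scale (adjusted p = 0.0386, and 0.189 against controls 3 and 4). Clec9a, a receptor of cross-presenting dendritic cells, cleared the background on each control array and on no exposed array, so its fall is a bound of at least 4.93-fold (adjusted p = 0.00746, and 0.0525 against controls 3 and 4, log2 means 7.06 and 4.15). The part of these cells in the Cx3cr1 result was not tested.

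Cxcr6 behaved alike on its overlapping probes. The probe A_55_P2165199 read 8.49, 8.76, 8.58 and 8.52 in controls and 6.89, 7.09, 6.96 and 7.00 in exposed thyroids. The groups were far apart for their spread, with an SD of 0.12 in controls and 0.08 in exposed thyroids. The fall was 3.04-fold, a log2 fold change of -1.60 ± 0.13 (SE, n = 4 per group, adjusted p = 0.0032). The other probe, which the gene-level rule picked, read 9.25, 9.61, 9.20 and 8.79 in controls and 7.73, 8.03, 7.87 and 8.12 in exposed thyroids. Its groups did not overlap either, and its log2 fold change was -1.27 ± 0.20 (SE, adjusted p = 0.0364). The call of this second probe did not last when single arrays were left out, with an adjusted p of 0.068 without control 1, 0.101 without control 2, 0.101 without control 3, 0.113 without S539, 0.0884 without S588, 0.124 without S589 and 0.0924 without S590, while A_55_P2165199 passed in all 18 alternatives (adjusted p at most 0.0416). Cxcl16, the membrane-bound ligand of Cxcr6, read 10.10, 10.50, 9.71 and 9.49 in controls and 10.18, 9.41, 10.09 and 10.08 in exposed thyroids. The groups overlapped fully, and the difference of -0.01 ± 0.27 (SE, adjusted p = 0.991) was 0.16 without S588 and 0.34 against controls 3 and 4 alone. T cell and NK cell markers, from cells that can carry Cxcr6, had no called gene among 13 and 9 measured. The mean deviation of the T cell markers was high on controls 1 and 2 alone, at 3.39 and 2.27, against -0.967 and -0.945 on controls 3 and 4. On these arrays A_55_P2165199 read 8.49 and 8.76, against 8.58 and 8.52. Single markers differed from that mean. The T cell marker Il7r (-1.96, adjusted p = 0.0642) and the NK cell marker Gzma (-1.55, adjusted p = 0.28) had every exposed array below every control. The groups overlapped in the other markers of both lists. The part of these cells in the Cxcr6 result was not tested.

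Cxcl12 was read on a pair of probes annotated to different transcript variants, both lower on every exposed array, and 1 of them passed. The probe for NM_021704 read 10.74, 11.49, 11.39 and 11.01 in controls and 9.68, 9.84, 9.95 and 9.86 in exposed thyroids. The lowest control stood above the highest exposed array, and the log2 fold change was -1.33 ± 0.19 (SE, n = 4 per group), or 2.51-fold lower (adjusted p = 0.0291). The probe for NM_001012477 read 13.30, 13.29, 13.23 and 13.18 in controls and 12.55, 13.01, 12.73 and 12.73 in exposed thyroids. Its groups did not overlap, but the difference was -0.49 ± 0.14 (SE) and missed the threshold (adjusted p = 0.208). The difference between the probes was not tested. Markers of stromal cells are set beside Cxcl12: all 11 fibroblast and pericyte markers were negative and none passed, with a median of -0.395. Their mean deviation ran from -0.04 to 0.445 in controls and from -0.35 to -0.06 in exposed thyroids, without overlap. Among controls it rose in order from control 1 to control 4, an order that neither Cxcl12 probe showed. Pdgfra, a fibroblast receptor, was at -1.05 (adjusted p = 0.113). All 11 fibroblast and pericyte markers cleared the background on every array. Of 12 markers of lymphatic and blood endothelium, 9 were positive and 3 negative, with a median of 0.1 and none called. All 8 skeletal muscle markers were negative, with a median of -1.12 and none called. The mean deviations of these further lists overlapped between groups. The part of stromal, endothelial and muscle cells in the Cxcl12 result was not tested. The call on the first probe was lost in 9 of 18 alternatives, with an adjusted p of 0.0935 without control 2, 0.0865 without control 3, 0.0702 without control 4, 0.096 without S539, 0.0797 without S588, 0.0884 without S589, 0.0933 without S590, 0.0548 in the methods' t-test and 0.0883 with controls 3 and 4 only. Cxcr4, its signalling receptor, read 9.47, 8.70, 8.07 and 7.46 in controls and 8.04, 6.97, 7.37 and 7.65 in exposed thyroids, where the groups overlapped (-0.92 ± 0.44, SE, adjusted p = 0.45). Cxcr7, now named Ackr3, a scavenger of Cxcl12, read 11.40, 11.28, 11.62 and 12.30 in controls and 10.64, 11.78, 11.71 and 11.79 in exposed thyroids (-0.17 ± 0.33, SE, adjusted p = 0.857).

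**Figure D2:**
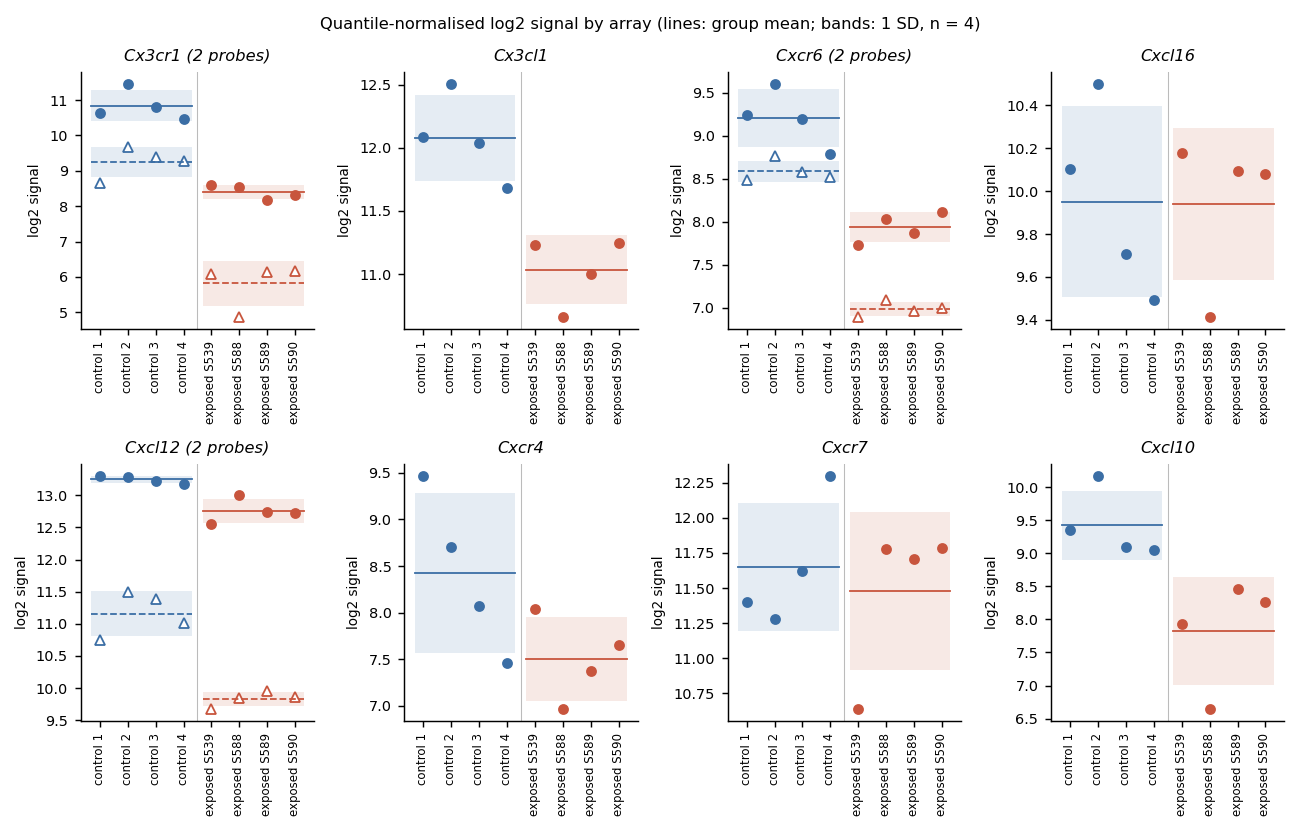
Quantile-normalised log2 signal of 8 chemokine genes on each of the 8 arrays, blue for controls and red for exposed thyroids; lines are group means and bands 1 SD, and open triangles with dashed lines are the second probe of a gene. Cx3cr1, Cx3cl1, Cxcr6, Cxcl12 and Cxcl10 show exposed arrays below all controls, whereas those of Cxcl16, Cxcr4 and Cxcr7 overlap. Cxcl10 is shown on its brighter probe only.

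The inflammatory ligands of macrophages and T cells gave no call. Ccl3 and Ccl4, which such cells release early in inflammation, were dim, with values from 4.15 to 6.12 and from 4.08 to 7.33 over the 8 arrays and differences of -0.13 and -0.58 that turned sign under some settings. Ccl5, made by activated T cells, read 11.29, 10.98, 9.05 and 9.93 in controls and 9.78, 8.64, 8.82 and 8.82 in exposed thyroids. The highest values were those of controls 1 and 2, and its difference of -1.30 ± 0.51 (SE, adjusted p = 0.373) was -0.48 when controls 3 and 4 alone were used.

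Ccl6 and Ccl9, macrophage-made ligands of Ccr1, ran the other way without passing. Ccl9 read 10.62, 10.03, 9.61 and 10.78 in controls and 10.78, 10.83, 11.04 and 11.33 in exposed thyroids. All exposed arrays but S539 lay above the highest control, and the log2 fold change was 0.73 ± 0.28 (SE, adjusted p = 0.361). With each gene read by its brightest RefSeq probe, this was the only rise of a member at an unadjusted p under 0.05. Ccl6 read 11.40, 10.58, 10.17 and 11.43 in controls and 10.87, 11.41, 11.64 and 11.98 in exposed thyroids, with overlap (0.58 ± 0.36, SE, adjusted p = 0.542). Ccr1 itself was well above background on no array.

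The Cxcr3 ligands, which are induced by interferon and call activated T cells, did not move together. Cxcl10 read 9.36, 10.18, 9.10 and 9.05 in controls and 7.94, 6.65, 8.46 and 8.26 in exposed thyroids, lowest on S588. The groups did not overlap, yet the spread among exposed arrays was wide and the log2 fold change of -1.60 ± 0.44 (SE) missed the threshold (adjusted p = 0.197, and 0.0891 to 0.411 over the alternatives). Without S588 it was -1.203 (adjusted p = 0.235). The second Cxcl10 probe was dim, well above background on 2 arrays of each group, and its groups overlapped (-1.05 ± 0.62, SE, adjusted p = 0.527). Cxcl9 was dim, well above background on 1 control array and all exposed arrays, with values from 4.58 to 5.78 in controls and from 5.33 to 6.21 in exposed thyroids, and its second probe went the other way (0.55 and -0.96, neither called). Cxcr3 read 7.27, 8.30, 6.80 and 6.74 in controls and 6.51, 8.33, 6.34 and 5.30 in exposed thyroids, with full overlap (-0.66 ± 0.64, SE, adjusted p = 0.699).

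Cxcl11 was bright on every array, from 17.80 to 18.17 in controls and from 18.08 to 18.39 in exposed thyroids, and did not pass (0.24 ± 0.14, SE, adjusted p = 0.528). Its probe A_55_P2160387 holds a stretch that recurs in other genes, which is shown because it bears on whether this signal belongs to Cxcl11 alone.
Cxcl11, probe A_55_P2160387, 30 of 60 bases: agccaGGGCTACACAGAGAAACCCTatctt
The 20 bases in capitals stood, on either strand, in 15 of 32851 RefSeq promoter windows and in 6 other probes of the array. Over its whole length, 7 probes of other genes and 22 promoter windows held 20 bases of it, where no other member probe shared 20 bases with more than 1 of either. The second Cxcl11 probe, which shared none, read 13.04 to 13.33 in controls and 13.33 to 14.73 in exposed thyroids, highest on S588 (0.59 ± 0.31, SE, adjusted p = 0.481), and without S588 the difference was 0.28 (adjusted p = 0.566). The part of the shared stretch in the signal was not tested.

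Chemokines that guide cells within the thymus and lymph nodes carried wide differences of group means, and these rested on 2 control arrays. Ccl25, made by thymic and intestinal epithelium, read 14.07, 13.55, 9.13 and 10.24 in controls and 10.26, 9.27, 9.76 and 9.38 in exposed thyroids. Its receptor Ccr9 read 12.48, 10.86, 7.73 and 7.02 in controls and 7.78, 7.11, 6.97 and 7.23 in exposed thyroids. Controls 1 and 2 were high for both. For Ccr9 controls 3 and 4 lay within the range of the exposed arrays, and for Ccl25 control 4 did, while control 3 lay just below it. The log2 fold changes were -2.08 ± 1.09 for Ccl25 (SE, adjusted p = 0.483) and -2.25 ± 1.15 for Ccr9 (SE, adjusted p = 0.474). Against controls 3 and 4 alone they were -0.02 and -0.10, so these differences were those of 2 arrays. These Ccl25 values came from the brightest of its 4 probes. The other Ccl25 probes were at -0.16, 0.41 and 0.45, none called, and did not set controls 1 and 2 above the rest. The second Ccr9 probe read 8.85 and 7.41 on controls 1 and 2 and 3.11 to 5.93 on the others. Ccr7, which brings naive T cells and dendritic cells into lymph nodes, and Ccl17, a ligand of Ccr4, were singled out after their values were seen. Ccr7 read 10.31 and 9.05 on controls 1 and 2 and 6.45 to 7.76 on the other 6 arrays, and Ccl17 read 7.51 and 7.96 on those controls and 5.05 to 6.64 on the others. Against controls 3 and 4 alone Ccr7 was at -0.26 and Ccl17 at -0.65. Cxcr4 and Ccl5 showed the same order, with controls 1 and 2 highest, and against controls 3 and 4 Cxcr4 was at -0.26.

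Markers of thymic tissue moved with these arrays. The mean deviation of 10 thymocyte markers was 3.07 and 2.20 on controls 1 and 2, and ran from -1.15 to -0.27 on the other 6 arrays. That of 13 T cell markers was 3.39 and 2.27, against -1.25 to -0.20, and that of 6 thymic epithelium markers 1.67 and 1.47, against -0.85 to 0.04. Rag1, the recombinase of developing lymphocytes, read 11.96 and 10.64 on controls 1 and 2 and 2.80 to 5.45 on the others. The part of such tissue in the Ccl25 and Ccr9 values was not tested. Against controls 3 and 4 alone, a comparison added after seeing the data, 2 of the 5 called probes passed. Cx3cr1 on A_55_P2007964 fell by 2.22 on the log2 scale (adjusted p = 0.0391) and Cxcr6 on A_55_P2165199 by 1.57 (adjusted p = 0.0416). The other 3 kept their direction and missed the threshold, with -3.52 for the second Cx3cr1 probe (adjusted p = 0.0697), -1.05 for Cxcr6 on A_55_P1962209 (adjusted p = 0.165) and -1.37 for Cxcl12 (adjusted p = 0.0883). The other lymphoid members, Ccl19, Ccl22, Ccr4, Cxcl13, Cxcr5, Xcl1 and Xcr1, ranged from -0.61 to 0.55 with none called, and Ccl22 and Xcr1 were well above background on no array.

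**Figure D3:**
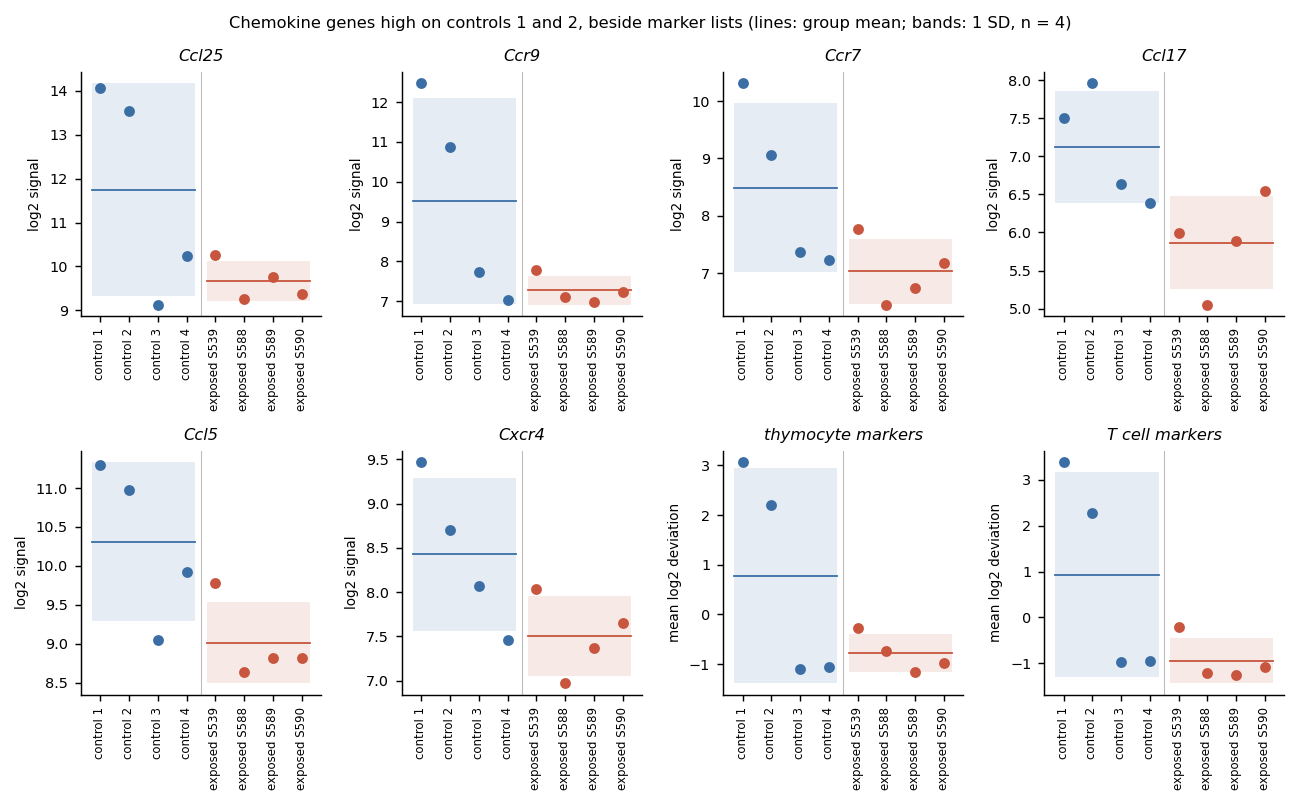
Log2 signal of 6 chemokine genes on each of the 8 arrays beside the mean log2 deviation of 10 thymocyte and 13 T cell markers from their means over all arrays; blue is control, red exposed, lines are group means and bands 1 SD. Controls 1 and 2 stand above the other 6 arrays in Ccl25, Ccr9, Ccr7, Ccl17, Ccl5 and Cxcr4 and in both marker sets.

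The neutrophil chemokines showed no common direction, and single exposed arrays stood out. Cxcl2, a ligand of Cxcr2, was singled out after its values were seen, as was Cxcl3. Cxcl2 was well above background on no control array and read 3.003, 3.11, 3.096 and 3.25 there, whereas the exposed arrays read 3.01, 7.12, 2.97 and 8.57. It was thus high on S588 and S590 alone, and the exposed mean was at least 1.08-fold above the control floor (adjusted p = 0.501, and 0.676 without S588, when S590 alone was high). Cxcl3 read 7.17 on S589 and 3.08 to 4.42 on the other 7 arrays. Cxcl1 (-0.52 ± 0.39, SE) and the receptor Cxcr2 (0.53 ± 0.57, SE) overlapped between groups, and none of the 7 genes passed (lowest adjusted p 0.408). Neutrophil markers, 10 measured, had a mean deviation of 3.08 on S588 and from -0.77 to 0.14 on the other 7 arrays, with S100a8 at 13.35 on S588. Cxcl2 was high on S590 too, where these markers were at -0.77. The part of neutrophils in these values was not tested.

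**Figure D4:**
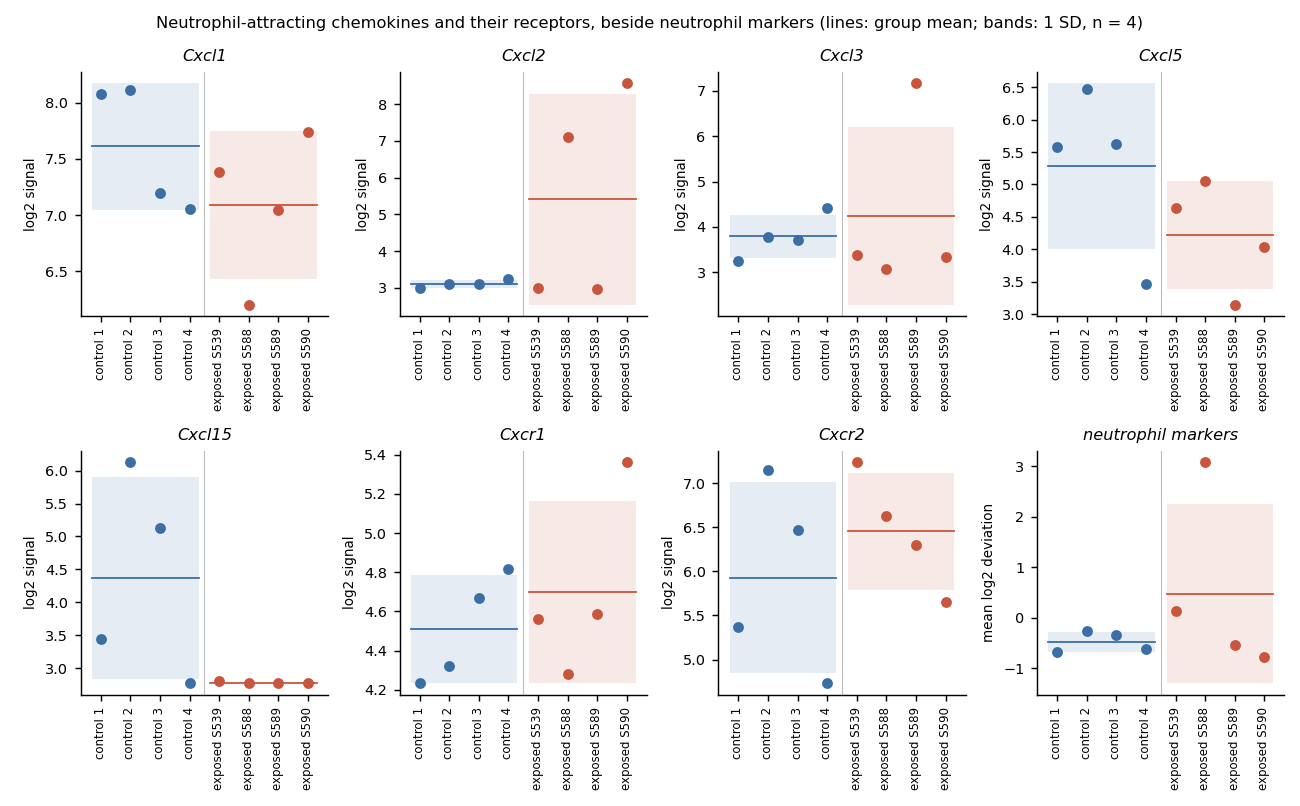
Log2 signal of 5 neutrophil-attracting ligands and the receptors Cxcr1 and Cxcr2 on each of the 8 arrays, beside the mean log2 deviation of 10 neutrophil markers; blue is control, red exposed, lines are group means and bands 1 SD. Cxcl2 is high on S588 (7.12) and S590 (8.57), Cxcl3 on S589 (7.17), and the neutrophil markers on S588 (3.08).

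Monocyte and eosinophil chemokines gave no called gene. In the Ccr2 group, which draws inflammatory monocytes, the 5 genes cleared the background on every array and ranged from -0.93 for Ccl12 to 0.73 for Ccl7, with 3 negative and 2 positive (lowest adjusted p 0.476). In the Ccr3 group, the eosinophil receptor and its ligands, the 4 genes ranged from -0.62 for Ccl24 to 0.87 for Ccl26. Ccl26 read 6.59, 4.98, 4.77 and 6.01 in controls, well above background on 1 of them, and 6.87, 6.34, 5.86 and 6.74 in exposed thyroids, and the groups overlapped (0.87 ± 0.44, SE, adjusted p = 0.474). Ccr8, a receptor of regulatory and Th2 cells, read 7.66 to 8.23 in controls and 8.02 to 8.74 in exposed thyroids (0.24 ± 0.21, SE, adjusted p = 0.673). Its second probe, well above background on no array, was at -0.32 (adjusted p = 0.591). The RefSeq probe of its ligand Ccl1 was well above background on no array. The other Ccl1 probe cleared the background on every array and was at -0.16 (adjusted p = 0.77).

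The epithelial chemokines, made at skin and mucosal surfaces, ranged from -0.56 to 0.74 over 7 genes with none called. Cxcl14, an epithelial and stromal chemokine, read 12.18, 13.31, 12.98 and 12.68 in controls and 12.22, 12.46, 12.26 and 11.98 in exposed thyroids. Control 1 lay among the exposed arrays, and the difference was -0.56 ± 0.25 (SE, adjusted p = 0.428). Cxcl17, a mucosal chemokine, read 6.52, 8.36, 7.07 and 5.97 in controls and 7.84, 7.92, 7.46 and 7.66 in exposed thyroids, which fell within the control range (0.74 ± 0.47, SE, adjusted p = 0.554).

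Few genes around the chemokine system passed. Of 21 further chemokine-system genes, such as platelet chemokines, atypical receptors and proteases, none passed, 17 were negative and the median log2 fold change was -0.345. Of 29 genes that carry the signal of chemokine receptors inside the cell, 1 passed, Ptk2b, a calcium-responsive tyrosine kinase, which rose by 2.04 on the log2 scale (9.87 to 10.98 in controls and 12.29 to 12.95 in exposed thyroids, adjusted p = 0.0204, and 0.0627 against controls 3 and 4 alone). Of 26 cytokines and adhesion molecules of leukocyte recruitment, none passed, with a median of -0.17. Controls 1 and 2 were highest in both of these lists. The mean deviation of the signalling genes was 0.616 and 0.46 there and from -0.26 to -0.08 on the other 6 arrays, and that of the recruitment genes was 0.524 and 0.379 against -0.264 to 0.0587. Against controls 3 and 4 alone the medians were -0.05 for the signalling genes, 0.02 for the recruitment genes and -0.133 for the further chemokine-system genes. For comparison the median over all genes was -0.03 and 1.2% of genes passed.

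The genes whose arrays varied most like Cx3cr1 within each group were found among 13766 genes whose log2 signal averaged 7 or more, over 8 arrays and after each group mean was subtracted. They were Sphk2 (Pearson r = 0.979), 9430015G10Rik (0.976), Lrrc26 (0.962), the member Cxcl17 (0.961) and Pdzk1ip1 (0.953). None of the 5 passed the test between groups, and these correlations, picked as the highest of many over 8 arrays on 1 slide, are a description.

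**Figure D5:**
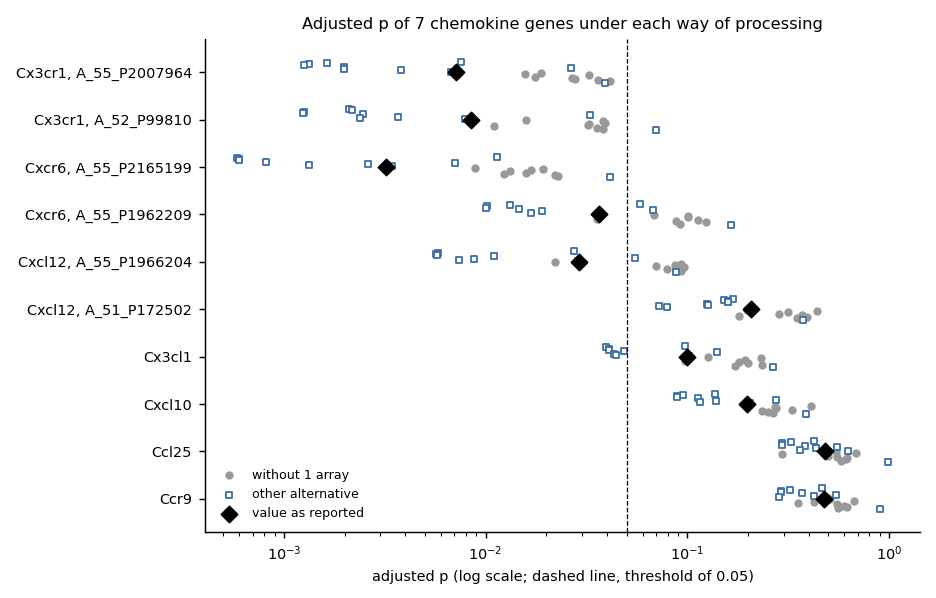
Adjusted p (log axis) of 10 probes of 7 chemokine genes under the reported processing (black diamonds), with 1 array left out (grey) and under other alternatives (blue squares); the dashed line is the threshold of 0.05. Cx3cr1 on A_55_P2007964 and Cxcr6 on A_55_P2165199 lie left of the line in all 18 alternatives, and Cxcl10, Ccl25 and Ccr9 lie right of it in all.

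Over the alternatives, 2 probes kept their call throughout. Cx3cr1 on A_55_P2007964 passed in all 18 alternatives, with a log2 fold change from -2.68 to -2.12, and so did Cxcr6 on A_55_P2165199, from -1.67 to -1.22. For every member whose groups did not overlap, the two-sided exact permutation p was 0.0286, the smallest that 4 arrays against 4 can give.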

How the data were processed

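Cy3-labelled cRNA of 8 thyroids was hybridised by the authors to 1-colour Agilent 8x60K mouse arrays, 1 array per thyroid and 4 per group. Groups came from the sample labels. Per the file headers, each deposited scanner file holds spot intensity from Feature Extraction 10.7.3.1, already background-subtracted; the authors also deposited a table of quantile-normalized log2 values without background correction, used here as an alternative. Here the log2 processed intensity was quantile-normalized between arrays, control spots were removed and spots of a probe averaged. Exposed minus control was tested with limma 3.58.1 in R 4.3.3 (lmFit, eBayes), with Benjamini-Hochberg adjustment over 55681 probes and a threshold of 0.05. A gene was read by its brightest RefSeq probe. Probes not above background were kept. Of 54 gene accessions, 53 were in the RefSeq table.

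Members and lists were chosen with earlier results of these data known. Genes given array by array were those with a called probe, those with groups that did not overlap and a log2 fold change of at least 1, the 5 brightest ligands and receptors, the partners of these, and the 3 largest rises and falls among genes well above background on every array of a group; any other member named with a value was chosen after its values were seen. A member counted in the totals is not reported here by name. The fit was tested on simulated data. Alternatives were the scaling, background correction, deposited table, dim-probe filter, t-test, variance trend, array weights, marked spots and single arrays left out. The number of arrays limits the precision.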

Additional observations from a re-analysis of the deposited data

Results flagged for a closer look

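Of 126 groups of 4 arrays of member probes, 12 held an array whose gap to its neighbour, divided by the group's range, passed Dixon's limit, where chance gives about 1 in 20, or 6.3. On S588 these were Ccr3 at 8.21, the second Cx3cr1 probe (A_52_P99810) at 4.87, the second Cxcl11 probe (A_55_P2044413) at 14.73 and Cxcl16 at 9.41. On S539 they were Ccl5 at 9.78, Ccl19 on A_55_P2099742 at 8.78 and Cxcr7 at 10.64. Cxcl3 stood at 7.17 on S589 and Xcl1 at 6.26 on S590. Among controls, Ccl12 read 7.59 on control 1, Ccl25 on A_55_P2027852 read 6.42 on control 2 and Ccl11 read 11.26 on control 4. The neutrophil markers were high on S588 as given above, and no cause of these values was tested.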

How the results depend on the processing

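Member probes past the threshold, 5 as reported, numbered 3 in the methods' t-test and 2 with controls 3 and 4 only, and 3 to 4 when 1 array was left out. They numbered 7 with normexp, without background correction, with deposited values, with the filter on dim probes and with array weights, 6 with the variance trend, 4 with 75th percentile scaling and 5 without marked spots. Member genes, 2 as reported, numbered 1 with 75th percentile scaling, 4 with normexp, 4 without background correction, 4 with deposited values, 4 with the filter on dim probes, 1 in the methods' t-test, 4 with array weights, 1 with controls 3 and 4 only, and 1 to 2 when 1 array was left out. The filter tested 36129 probes in place of 55681. The cause of the other shifts was not tested. Calls over all probes rose as well in the settings with 4 genes, as given below. The share of all genes called was not computed by setting. Cx3cl1 was called in each of the settings with 4 genes. Genes without overlap in either direction, 7 as reported, numbered 8 to 12 when 1 array was left out, 12 without control 4. The share over all genes was not computed for these smaller groups, which separate more easily. The methods' t-test gave 13 member probes unadjusted and 3 after Benjamini-Hochberg adjustment, and 6962 and 289 over all probes, against 435 in limma. Over all probes, 75th percentile scaling called 577, normexp 856, no background correction 962, deposited values 955, the filter 733, the trend 744 and array weights 959. Without marked spots it was 401, and leaving out 1 array gave 100 to 481 (lowest without S590). With controls 3 and 4 only it was 89.

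Signs turned in genes with no call. Ccl3 was 0.34 with 75th percentile scaling, 0.14 without control 2, 0.0083 without control 3 and 0.21 without S588, with -0.37 to 0.21 over the arrays left out. Ccl4 was 0.0342 with normexp, 0.0175 without background correction and 0.0178 with deposited values. Cxcl16 was 0.00877 with 75th percentile scaling, 0.0314 without background correction, 0.0327 with deposited values, 0.04 without control 1, 0.17 without control 2, 0.16 without S588 and 0.34 with controls 3 and 4 only. Cxcr7 was 0.04 without control 4 and 0.11 without S539, with -0.30 to 0.11 over the arrays left out. With 75th percentile scaling all probes had a median of 0.165; relative to it Ccl3 was 0.17 and Cxcl16 -0.16. Ccl3 and Ccl4 had no value under the filter, and Cxcr3 none without marked spots. No paired analysis was possible because the control numbers and the exposed S-numbers have none in common. Low signal over background limits 16 members well above background on some arrays and 5 on none.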
